A study of Mus musculus with 4 samples.

Results

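The heteromeric amino acid transporters described here comprise 8 of the 27998 genes counted: the light chains Slc7a5, Slc7a6, Slc7a7, Slc7a8, Slc7a9 and Slc7a11 and the heavy chains Slc3a1 and Slc3a2. They were taken by gene symbol from the count matrix of each of 4 single cell libraries, and all 8 were present in all 4. The study deleted Slc7a5 in the intestinal epithelium and asked whether this altered mTORC1 signalling, development or homeostasis of the intestine. Its single cell data served to describe changes among crypt cell types, Paneth cells among them. Live EpCAM+ CD45- cells were sorted from crypt preparations of mice aged 8 weeks and profiled with the 10x Genomics 3′ kit, which counts each captured transcript once through a unique molecular identifier (UMI). Of the libraries, 2 were labelled Slc7a5 fl/fl (fl/fl 1 and fl/fl 2) and 2 Slc7a5 IEC-KO (IEC-KO 1 and IEC-KO 2), and both genotypes carried the floxed Slc7a5 exon 1. Only the IEC-KO mice carried Cre in addition, driven by the villin promoter, which is active along the whole intestinal epithelium, so every epithelial class was targeted and not Paneth cells alone. The study's controls were sex-matched littermates housed together.

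Each transporter of this family pairs a light chain, which carries the amino acids, with a heavy chain, which brings it to the cell surface through a disulphide bond. Slc3a2 (4F2hc, CD98) serves Slc7a5 (LAT1, large neutral amino acids such as leucine), Slc7a8 (LAT2, a wider range of neutral amino acids), Slc7a7 and Slc7a6 (y+LAT1 and y+LAT2, cationic against neutral amino acids with sodium) and Slc7a11 (xCT, cystine in exchange for glutamate). Slc3a1 (rBAT) serves Slc7a9 (b0,+AT), the apical uptake system for cystine and cationic amino acids in kidney and small intestine. In absorptive enterocytes Slc7a9 with Slc3a1 takes amino acids up from the lumen, and Slc7a7 and Slc7a8 with Slc3a2 release them on the basolateral side. Slc7a11, Slc7a5 and Slc3a2 are also known targets of ATF4, the transcription factor induced when amino acids run short.

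On GRCm38 with GENCODE M21, Slc7a5 lies on chromosome 8 from 121881150 to 121907694 on the minus strand. Its transcript Slc7a5-201 has exon 1 at 121907066 to 121907694 (629 bases) and its last exon, number 10, at 121881150 to 121883095 (1946 bases). The 3′ kit samples the last exon, outside the deleted exon 1, so Slc7a5 UMIs do not check the knockout and do not tell a full transcript from one that lacks exon 1. Slc7a6 lies on the same chromosome at 106168857 to 106198706 (plus strand). Slc7a7 (54369442 to 54417780) and Slc7a8 (54722209 to 54781946) are neighbours on the minus strand of chromosome 14. Slc7a9 is at 35448796 to 35466036 on chromosome 7 (plus), Slc7a11 at 49892526 to 50443614 on chromosome 3 (minus), Slc3a1 at 85028376 to 85064236 on chromosome 17 (plus) and Slc3a2 at 8706882 to 8723369 on chromosome 19 (minus). Slc7a11 overlaps the same-strand models Gm37692 and Gm37498. The opposite-strand genes Gm20388, Oxa1l and Prepl overlap Slc7a5, Slc7a7 and Slc3a1 at their 3′ ends, and whether the counting used strand is not given in the sources used here.

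RefSeq promoters (GRCm38.p6) were found for 7 of the 8 genes, not for Slc7a5. The 250 bases before each start were searched on both strands for TGATGNAA, the C/EBP-ATF response element bound by ATF4, and for TGACNNNGC, the antioxidant response element. These letters occurred in 3.45% and 10.2% of the 32851 promoters in the table. The promoters of Slc7a11 and Slc3a2, the light chain with the steepest rise in the IEC-KO libraries and its heavy chain, are shown 5′ to 3′ in the direction of the gene, with matches in capitals. The Slc7a11 window is chr3:50443614-50443863 on the minus strand and the Slc3a2 window is chr19:8713898-8714147 on the minus strand.
Slc7a11: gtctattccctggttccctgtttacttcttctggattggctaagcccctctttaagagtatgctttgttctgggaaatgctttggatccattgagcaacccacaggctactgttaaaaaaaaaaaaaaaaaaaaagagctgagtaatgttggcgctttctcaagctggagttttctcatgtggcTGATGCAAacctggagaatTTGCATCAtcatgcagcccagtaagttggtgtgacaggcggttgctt
Slc3a2: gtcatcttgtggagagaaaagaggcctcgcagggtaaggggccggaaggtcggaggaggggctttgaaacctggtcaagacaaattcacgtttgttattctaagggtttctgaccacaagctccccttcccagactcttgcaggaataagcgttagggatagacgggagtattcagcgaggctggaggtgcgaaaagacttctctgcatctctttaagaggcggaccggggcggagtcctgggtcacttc
The Slc7a11 promoter held 2 matches to the C/EBP-ATF letters, one on each strand, beginning 66 and 47 bases before the start. The Slc3a2 window held neither motif, nor did those of Slc7a8, Slc7a9 and Slc3a1. It belongs to the 1 Slc3a2 promoter found and lies inside the gene span of 8706882 to 8723369 given above. The bases before the 5′ end of that span, at 8723369, were not searched. Of the 5 Slc7a7 promoters 2 held a C/EBP-ATF match, at 141 and 243 bases, and 1 of the Slc7a6 promoters held an antioxidant match at 68 bases. A match is a stretch of letters and not a shown binding site, and no match speaks only for this window.

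Cells were classed by marker UMIs that include none of the 8 genes. Paneth-gated cells had at least 30% of their UMIs in Defa genes (13 alpha-defensin symbols), and the other classes were drawn from cells under 20%. Paneth-gated cells numbered 2020 and 1950 in the fl/fl libraries and 2019 and 2336 in the IEC-KO libraries, and goblet-gated cells 764, 577, 4632 and 4369 in the same order. Cells with goblet and cycling markers numbered 208, 157, 411 and 419, cycling cells without goblet markers 182, 155, 296 and 254, and enterocyte-gated cells 108, 87, 289 and 221. Cells between the gates, at 20 to 30%, made up 3.30% and 2.77% of the fl/fl barcodes and 13% and 12.6% of the IEC-KO barcodes, and entered no class. Paneth-gated cells had median depths of 46965 and 52852 UMIs in the fl/fl libraries and 13782 and 20159 in the IEC-KO libraries, so all shares of cells below were taken after thinning each cell to 3843 UMIs. Between 14 and 132 cell barcodes were shared by any pair of libraries. Enteroendocrine-gated and tuft-gated cells numbered at most 9 in a fl/fl library and were not tested.

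Each library gave 1 summed UMI count per gene and class. Levels are given as CPM, UMIs per 1000000 of the sum after TMM scaling, which sets the bulk of genes equal between sums, in the order fl/fl 1, fl/fl 2, IEC-KO 1, IEC-KO 2. Genotype differences are log2 fold changes of IEC-KO over fl/fl with their standard error (SE), tested with edgeR's quasi-likelihood test and Benjamini-Hochberg adjustment over all genes tested (n = 2 libraries per genotype), and called at an adjusted p under 0.05. The records name 4 mice without tying them to libraries, so these p-values measure only the spread between libraries. In these sums, more transcript per cell cannot be told apart from more cells that hold it.

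**Figure D1:**
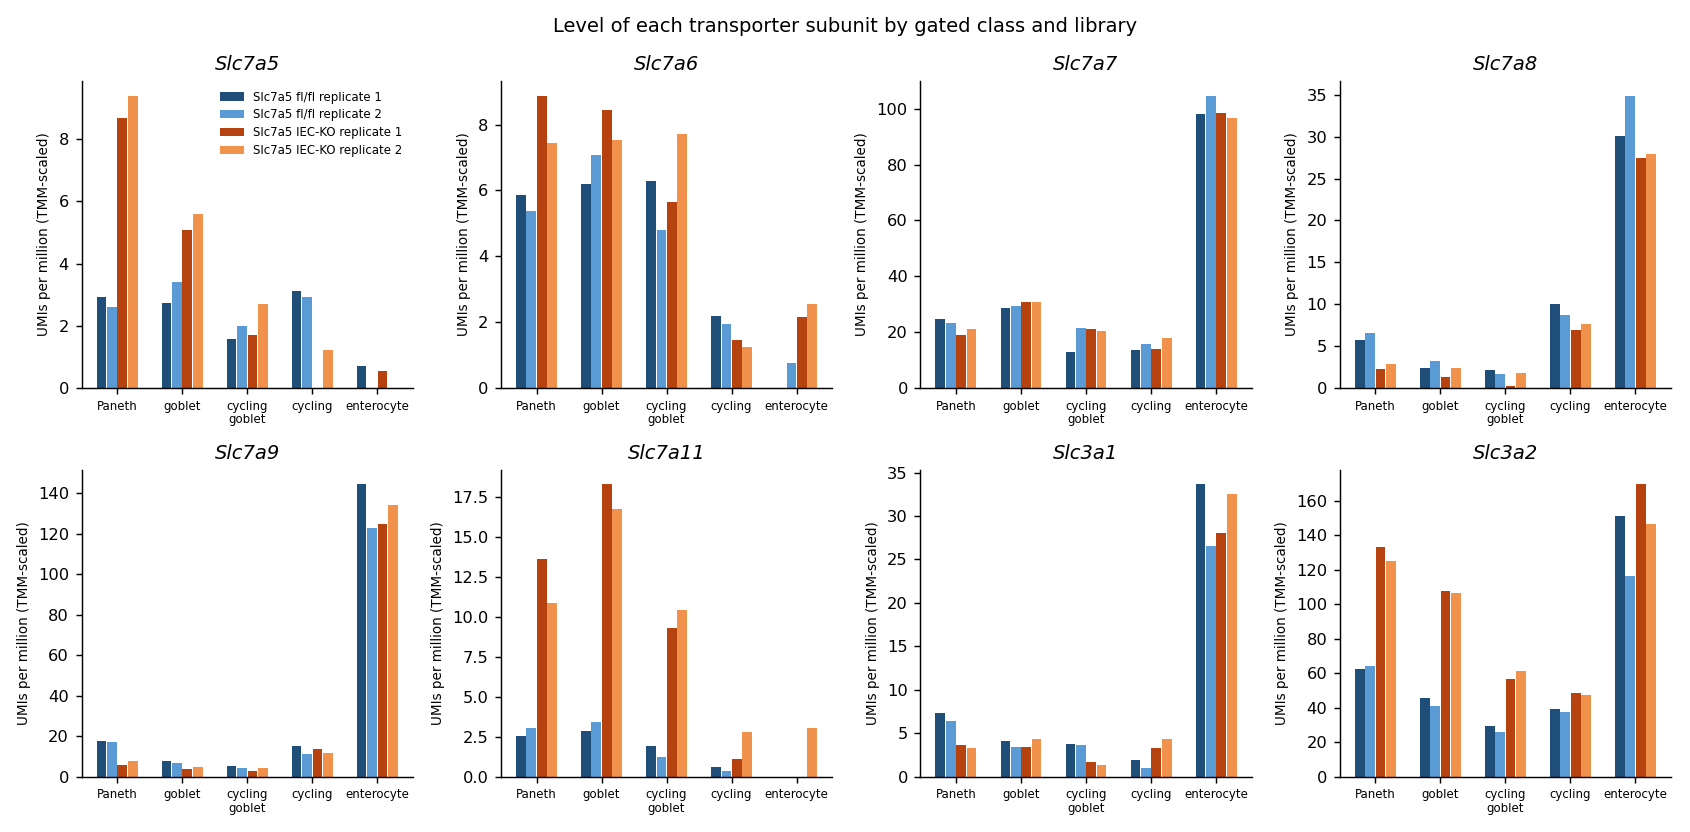
Level of each of the 8 genes in CPM (UMIs per 1000000, TMM-scaled, linear axis from 0) in 5 gated classes, with a bar for each library. Slc7a7, Slc7a8, Slc7a9 and Slc3a1 stand highest in enterocyte-gated cells, while Slc7a5 reaches 8.67 and 9.41 in the Paneth-gated cells of the IEC-KO libraries and Slc7a11 18.3 and 16.7 in their goblet-gated cells.

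The absorptive set was highest in enterocyte-gated cells and the ATF4-linked light chains were scarce there. Slc7a9 stood at 144, 123, 125 and 134 CPM in enterocyte-gated cells against 7.51, 6.49, 3.61 and 4.67 in goblet-gated cells, without overlap (log2 difference 4.76, SE 0.13, 27.1-fold, adjusted p = 7.46e-14 by edgeR). Slc7a8 was 14.3-fold higher in enterocyte-gated than in goblet-gated cells (log2 3.84, SE 0.19), Slc3a1 8.30-fold (3.05, SE 0.15), Slc7a7 3.48-fold (1.80, SE 0.09) and Slc3a2 2.13-fold (1.09, SE 0.17). Slc7a5 (−3.73, SE 0.62), Slc7a11 (−3.58, SE 0.46) and Slc7a6 (−2.20, SE 0.39) were lower. All 8 genes were thus called between these classes, where 57.9% of all genes were (2830 higher and 2625 lower, or 3516 and 1967 under scaling by library size, which turned no direction here). Slc7a5, Slc7a11 and Slc7a6 were too sparse to test by genotype in enterocyte-gated cells. They passed the count filter of this comparison only together with the goblet-gated sums. Slc7a11 gave 0, 0, 0 and 6 UMIs in enterocyte-gated cells and Slc7a6 0, 1, 4 and 5. Slc7a5 gave 1, 0, 1 and 0 UMIs there, and its 0 among the 1658634 UMIs of IEC-KO 2 allows up to 1.81 unscaled CPM.

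Between Paneth-gated and enterocyte-gated cells all 8 genes were called as well, against 56.3% of all genes. Slc7a5 (4.31, SE 0.61, adjusted p = 6.84e-05 by edgeR), Slc7a11 (3.13, SE 0.56) and Slc7a6 (2.19, SE 0.40) were higher in Paneth-gated cells. These genes, too sparse to test by genotype in enterocyte-gated cells, passed the count filter only together with the Paneth-gated sums. Slc7a9 (−3.62, SE 0.24), Slc7a8 (−2.91, SE 0.22), Slc3a1 (−2.65, SE 0.21), Slc7a7 (−2.21, SE 0.11) and Slc3a2 (−0.70, SE 0.15) were lower. Scaling by library size alone, which moved the median of all genes by −1.49 and the split of calls from 2985 higher and 3045 lower to 412 and 7942, turned none of these directions, but the call for Slc7a6 was lost (0.80, adjusted p = 0.145).

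Against goblet-gated cells, Paneth-gated cells had 6 of the 8 genes called, where 48.8% of all genes were. Slc7a9 (0.95, SE 0.13), Slc7a8 (0.72, SE 0.18), Slc7a5 (0.56, SE 0.16) and Slc3a2 (0.39, SE 0.07) were higher in Paneth-gated cells and Slc7a11 (−0.47, SE 0.10) and Slc7a7 (−0.46, SE 0.08) lower on the TMM scale. The 4 higher values turned under scaling by library size, to −0.35, −0.54, −0.83 and −0.92, since that scaling moved the median of all genes by −1.31. Its split of calls was 167 higher and 10630 lower, against 2787 higher and 2996 lower with TMM. The Slc7a5 difference pools genotypes that did not run alike, with a mean level of 2.77 ± 0.21 CPM (SD, n = 2) in Paneth-gated and 3.07 ± 0.46 in goblet-gated cells of the fl/fl libraries and 9.04 ± 0.52 and 5.33 ± 0.37 in the IEC-KO libraries, with overlap between the classes in fl/fl and none in IEC-KO. The Slc7a5 call did not hold without IEC-KO 1 (0.43, adjusted p = 0.112) or without IEC-KO 2 (0.40, adjusted p = 0.161), and that of Slc7a11 did not hold without IEC-KO 2 (−0.32, adjusted p = 0.0828).

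On the TMM scale the cycling classes differed from Paneth-gated cells in some light chains. Under scaling by library size only Slc7a8 against cycling cells without goblet markers kept its call and direction (−3.00). Against cycling cells without goblet markers, 5 of 8 genes were called (61.0% of all genes). Slc7a11 (2.54, SE 0.32) and Slc7a6 (1.95, SE 0.28) were higher in Paneth-gated cells and Slc7a8 (−1.02, SE 0.23) lower. The calls of Slc7a11 (0.84, adjusted p = 0.0767 by edgeR) and Slc7a6 (0.06, adjusted p = 0.887) were lost under scaling by library size. Slc3a2 (1.05, SE 0.14) and Slc7a7 (0.50, SE 0.13) were higher with TMM and turned to −0.86 and −1.41 under scaling by library size. Against cycling cells with goblet markers, 5 of 8 were called (47.0% of all genes), all higher in Paneth-gated cells with TMM. Of these Slc7a5 (1.63, SE 0.28) lost its call at 0.08 (adjusted p = 0.827) under scaling by library size, while Slc7a8 (1.45, SE 0.30), Slc7a9 (1.42, SE 0.20), Slc3a2 (1.17, SE 0.08) and Slc3a1 (1.03, SE 0.21) turned to −0.18, −0.23, −0.44 and −0.62. That scaling moved the median of all genes by −1.88 and −1.60 in these comparisons, and the splits of calls from 3377 higher and 3293 lower to 281 and 9434 and from 2474 and 2682 to 136 and 9860. Some called genes were too sparse to test by genotype in the cycling class and passed the count filter only together with the Paneth-gated sums. These were Slc7a11 and Slc7a6 against cycling cells without goblet markers, and Slc7a5 and Slc7a8 against those with them.

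In the comparison of genotypes, all 8 genes passed the test in Paneth-gated cells, where 39.9% of the 12492 genes tested did. Slc7a5, Slc7a6, Slc7a11 and Slc3a2 were higher and Slc7a7, Slc7a8, Slc7a9 and Slc3a1 lower in the IEC-KO libraries. In cells under 20% Defa 6 of 8 passed (33.6% of all genes), in goblet-gated cells 4 of 8 (21.3%) and in cycling cells with goblet markers 2 of the 6 tested (3.68%). Of these 2, Slc7a11 passed the count filter only through the IEC-KO libraries, so its call there is not a test. In cycling cells without goblet markers (1.89% of all genes called) and in enterocyte-gated cells (1.46%) 0 of the 5 tested passed with edgeR. DESeq2 also called 0 in both, and 2 and 0 of the 5 had an unadjusted p under 0.05.

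**Figure D2:**
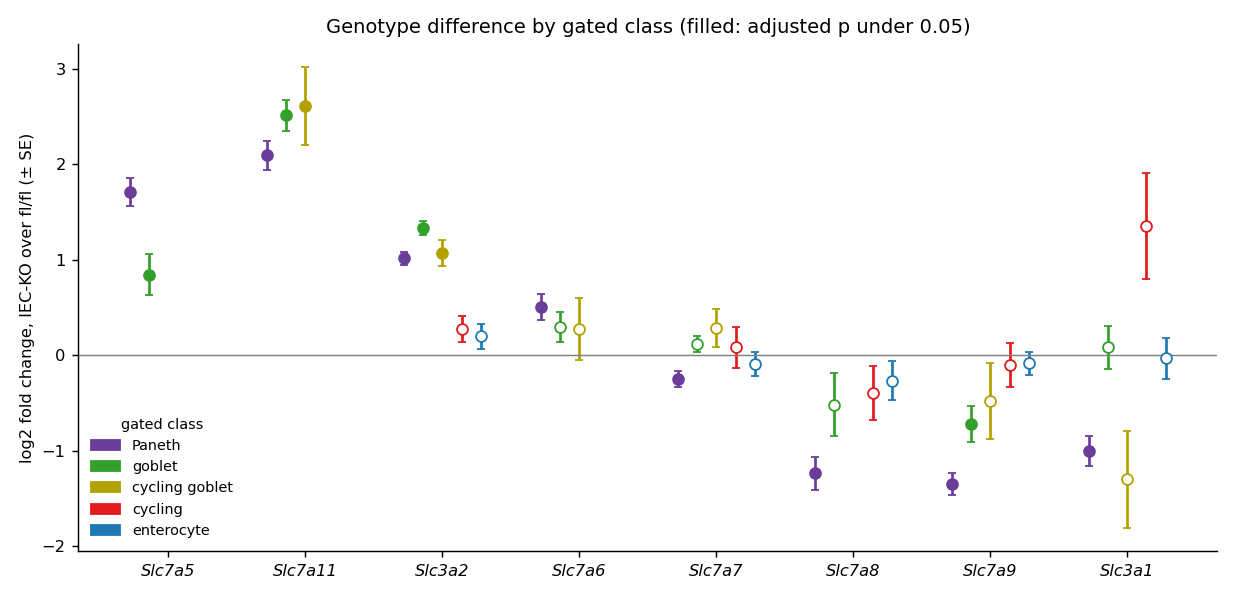
Log2 fold change of IEC-KO over fl/fl (y axis, error bars ± SE) for each of the 8 genes in 5 gated classes, with filled points for an adjusted p under 0.05 in edgeR and no point where a gene was too sparse to test. Slc3a2 and Slc7a11 are filled and above 0 in Paneth-gated, goblet-gated and goblet-marked cycling cells, while Slc7a8, Slc7a9 and Slc3a1 are filled at −1.24, −1.35 and −1.01 in Paneth-gated cells and open in enterocyte-gated cells. In goblet-marked cycling cells Slc7a11 passed the count filter only through the IEC-KO libraries.

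The heavy chain Slc3a2 was called higher in the IEC-KO libraries in every tested class with goblet or Paneth markers. In Paneth-gated cells it stood at 62.4, 64.4, 133 and 125 CPM, from 1946, 2069, 1962 and 3350 UMIs. Both IEC-KO libraries stood above both fl/fl libraries (log2 1.02, SE 0.07, 2.03-fold, adjusted p = 9.06e-11 by edgeR). In goblet-gated cells it stood at 45.5, 41.0, 108 and 107 (1.33, SE 0.08, 2.52-fold, adjusted p = 4.01e-10). In cycling cells with goblet markers it stood at 29.2, 26.0, 56.4 and 61.0 (1.07, SE 0.13, 2.1-fold, adjusted p = 2.04e-07). In these 3 classes the genotypes did not overlap. In cycling cells without goblet markers it stood at 39.1, 37.6, 48.8 and 47.1, also without overlap but not called (adjusted p = 0.438). In enterocyte-gated cells it stood at 151, 116, 170 and 147, with overlap (adjusted p = 0.602). Cells too few to test were higher in IEC-KO as well. Their unscaled means in fl/fl and IEC-KO were 45.9 and 87.4 CPM (enteroendocrine-gated) and 41.8 and 74.4 (tuft-gated).

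The size of the Slc3a2 difference depended on the class. The change in Paneth-gated cells exceeded that in cycling cells by 0.71 (SE 0.14, adjusted p = 1.51e-05 by edgeR's interaction test) and that in enterocyte-gated cells by 0.76 (SE 0.13, adjusted p = 4.42e-07). The latter was lost without fl/fl 1 (0.53, adjusted p = 0.0773), and with cells thinned to 2000 UMIs both were lost, at 0.46 (adjusted p = 0.573) and 0.20 (adjusted p = 0.858). Against goblet-gated cells the change was smaller by 0.31 (adjusted p = 0.00153). That call was lost without fl/fl 2 (−0.22, adjusted p = 0.177) and with thinned cells (−0.27, adjusted p = 0.627), and the value turned to 0.32 under scaling by library size.

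Slc7a11, the cystine carrier of the Slc3a2 group, had the steepest rise among the 8 genes in Paneth-gated and in goblet-gated cells. In Paneth-gated cells it stood at 2.53, 3.05, 13.6 and 10.8 CPM (2.1, SE 0.15, 4.27-fold, adjusted p = 3.04e-10 by edgeR), from 79, 98, 201 and 290 UMIs. In goblet-gated cells it stood at 2.86, 3.39, 18.3 and 16.7 (2.52, SE 0.16, 5.73-fold, adjusted p = 2.72e-09). In cycling cells with goblet markers it stood at 1.88, 1.20, 9.30 and 10.4, from only 6 and 3 UMIs in the fl/fl libraries (2.62, SE 0.41, 6.13-fold). Slc7a11 passed the count filter there only through the IEC-KO libraries, so this difference is a value and not a test. The genotypes did not overlap in any of the 3. Slc7a11 gave 2, 1, 3 and 9 UMIs in cycling cells without goblet markers and 0, 0, 0 and 6 in enterocyte-gated cells, too few to test. In cells under 20% Defa it was 7.27-fold higher in IEC-KO (2.86, SE 0.13), a pool that also holds different shares of each class in each genotype.

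Slc7a5, the leucine carrier and the targeted gene, had a higher level of 3′ UMIs in the Paneth-gated and goblet-gated cells of the IEC-KO libraries. In cycling cells without goblet markers, where it was too sparse to test, its level was lower. In Paneth-gated cells it stood at 2.92, 2.61, 8.67 and 9.41 CPM, from 91, 84, 128 and 252 UMIs (1.71, SE 0.15, 3.28-fold, adjusted p = 4.98e-09 by edgeR). In goblet-gated cells it stood at 2.74, 3.39, 5.07 and 5.59, from 23, 23, 149 and 220 UMIs (0.84, SE 0.21, 1.80-fold, adjusted p = 0.0086). The genotypes did not overlap in either class. Cycling cells with goblet markers gave 5, 5, 6 and 14 UMIs, too few to test, with means of 1.78 ± 0.31 CPM in fl/fl and 2.20 ± 0.72 in IEC-KO (SD) and overlap between genotypes. The goblet call was lost without fl/fl 1 (adjusted p = 0.119) and with DESeq2 (adjusted p = 0.129), and with cells thinned to 2000 UMIs both calls were lost (adjusted p = 0.0826 in Paneth-gated cells).

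In cycling cells without goblet markers Slc7a5 gave 10, 9, 0 and 4 UMIs. These are 3.13, 2.92, 0 and 1.23 CPM, and the 0 among the 1824924 UMIs of IEC-KO 1 allows up to 1.64 unscaled CPM. Here the IEC-KO libraries were the lower ones. The gene was too sparse for the test within this class. It passed the count filter of the joint fit only together with the larger Paneth-gated sums, so this difference is a value and not a test. In edgeR's interaction fit the change in Paneth-gated cells exceeded that in cycling cells by 3.88 (SE 0.71), from 23 UMIs in cycling cells. Against goblet-gated cells the change was larger by 0.87 (adjusted p = 0.0222), but this was lost without fl/fl 1 (1.10, adjusted p = 0.0505), fl/fl 2 (0.65, adjusted p = 0.323) or IEC-KO 2 (0.86, adjusted p = 0.0622) and turned to −0.35 with cells thinned to 2000 UMIs.

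Slc7a6 and Slc7a7, the y+LAT exchangers, moved little on the TMM scale. Slc7a6 stood at 5.87, 5.38, 8.88 and 7.43 CPM in Paneth-gated cells (0.51, SE 0.13, 1.42-fold, adjusted p = 0.00456 by edgeR), a call lost with DESeq2 (adjusted p = 0.0573). Under scaling by library size the Slc7a6 change there was larger, at 1.13 (adjusted p = 5.43e-09 by edgeR). In goblet-gated cells it stood at 6.20, 7.08, 8.44 and 7.52 and was not called. Slc7a7 stood at 24.7, 23.4, 18.9 and 21.2 in Paneth-gated cells (−0.25, SE 0.08, 1.19-fold lower, adjusted p = 0.0206). Its direction there turned to 0.36 under scaling by library size, which moved the median of all genes by 0.62. The Slc7a7 call was also lost without fl/fl 1 (adjusted p = 0.122), without IEC-KO 1 (adjusted p = 0.129) and with DESeq2 (adjusted p = 0.178). In goblet-gated cells Slc7a7 stood at 28.6, 29.4, 30.7 and 30.8 and was not called.

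In the pooled cells under 20% Defa the calls were Slc7a11, Slc3a2 (2.07-fold higher), Slc7a5 (1.75-fold higher), Slc7a6 (1.45-fold higher, a call lost with DESeq2 at adjusted p = 0.0514), Slc7a8 (−0.87) and Slc7a9 (−0.94). Slc7a7 stood at 28.6, 30.1, 30.3 and 30.4 CPM there and Slc3a1 at 6.15, 5.06, 4.68 and 5.46, and neither was called. Scaling by library size split the Paneth calls into 8795 higher and 454 lower genes, against 2515 and 2475 with TMM, and those of cells under 20% Defa into 1172 and 3787, against 2102 and 2061.

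The absorptive subunits Slc7a8, Slc7a9 and Slc3a1 were lower in the Paneth-gated cells of the IEC-KO libraries. Slc7a9, the apical cystine and cationic amino acid carrier, stood at 17.6, 16.9, 5.49 and 7.61 CPM (−1.35, SE 0.12, 2.55-fold lower, adjusted p = 6.59e-09 by edgeR). Slc7a8, the basolateral neutral exchanger, stood at 5.67, 6.51, 2.24 and 2.80 (−1.24, SE 0.17, 2.36-fold lower, adjusted p = 5.8e-06). Slc3a1, the heavy chain of Slc7a9, stood at 7.31, 6.35, 3.66 and 3.25 (−1.01, SE 0.16, 2.01-fold lower, adjusted p = 2.25e-05), a call lost under scaling by library size (adjusted p = 0.0502). In all 3 genes every IEC-KO library lay below both fl/fl libraries. None of them was called in enterocyte-gated cells, with Slc7a9 at 144, 123, 125 and 134, Slc7a8 at 30.1, 34.9, 27.5 and 28.0 and Slc3a1 at 33.6, 26.6, 28.0 and 32.6. The change in Paneth-gated cells differed from that in enterocyte-gated cells by −1.35 for Slc7a9 (SE 0.16, adjusted p = 7.1e-15 by the interaction test), −1.05 for Slc7a8 and −1.04 for Slc3a1. The Slc7a8 value lost its call without fl/fl 1, fl/fl 2 or IEC-KO 1 (adjusted p = 0.0598, 0.0581 and 0.114) and the Slc3a1 value without fl/fl 2 or IEC-KO 2 (adjusted p = 0.06 and 0.217). Both were also lost under scaling by library size (−0.37 each), and the Slc7a8 call with cells thinned to 2000 UMIs (adjusted p = 0.583).

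Enterocyte markers were lower together with these genes in the Paneth-gated cells, and so, on the TMM scale, were markers of some other classes. UMIs of the 20 enterocyte markers summed to 2660, 2653, 1357 and 1563 CPM outside Defa in Paneth-gated cells, 2236, 2292, 1337 and 1440 in goblet-gated cells and 47111, 53481, 50280 and 46275 in enterocyte-gated cells. All 20 had a UMI in the Paneth-gated cells of each library, and the 20 were called lower there in the IEC-KO libraries (15 in goblet-gated cells), with a median log2 change of −1.31. Of all genes 39.9% were called, higher or lower, in Paneth-gated and 21.3% in goblet-gated cells. Of the cycling markers 0 were higher and 17 of 19 lower in Paneth-gated cells (median −0.75), of the tuft markers 1 and 12 of 17 (−0.48) and of the immune markers 0 and 3 of 4 (−1.22). These calls, and those that follow, are on the TMM scale. In CPM outside Defa the cycling markers summed to 897, 910, 1008 and 1042 there. The tuft markers summed to 1003, 984, 1850 and 1663, so both sums were higher in IEC-KO on that scale. The Paneth markers themselves gave 3 higher and 6 lower of 12 (−0.91), while goblet markers gave 8 and 7 of 20 (−0.05), stem markers 6 and 4 of 15 (0.06) and enteroendocrine markers 2 and 6 of 19 (−0.11).

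Per 1000 enterocyte marker UMIs of the same cells, Slc7a9 gave 3.72, 3.54, 3.07 and 3.88 UMIs in Paneth-gated cells, 3.61, 3.03, 2.87 and 3.51 in goblet-gated cells and 3.85, 2.95, 3.03 and 3.55 in enterocyte-gated cells. The 3 classes thus held Slc7a9 and the markers in about 1 ratio. Cycling cells held more, with 9.39, 6.54, 8.49 and 7.11.

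The other 3 absorptive genes stood above the enterocyte ratio in Paneth-gated cells. Slc7a8 gave 1.20, 1.36, 1.25 and 1.43 UMIs per 1000 marker UMIs there against 0.804, 0.837, 0.665 and 0.740 in enterocyte-gated cells. Slc3a1 gave 1.54, 1.33, 2.05 and 1.66 against 0.897, 0.637, 0.678 and 0.862. Slc7a7 gave 5.22, 4.89, 10.6 and 10.8 against 2.62, 2.51, 2.39 and 2.56, and reached 13.7, 13.7, 24.4 and 23.1 in goblet-gated cells. Within Paneth-gated cells the ratios of Slc7a9 and Slc7a8 overlapped between genotypes, while those of Slc3a1 and Slc7a7 were higher in both IEC-KO libraries. The part of RNA from enterocytes or other cells in these falls was not tested.

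**Figure D3:**
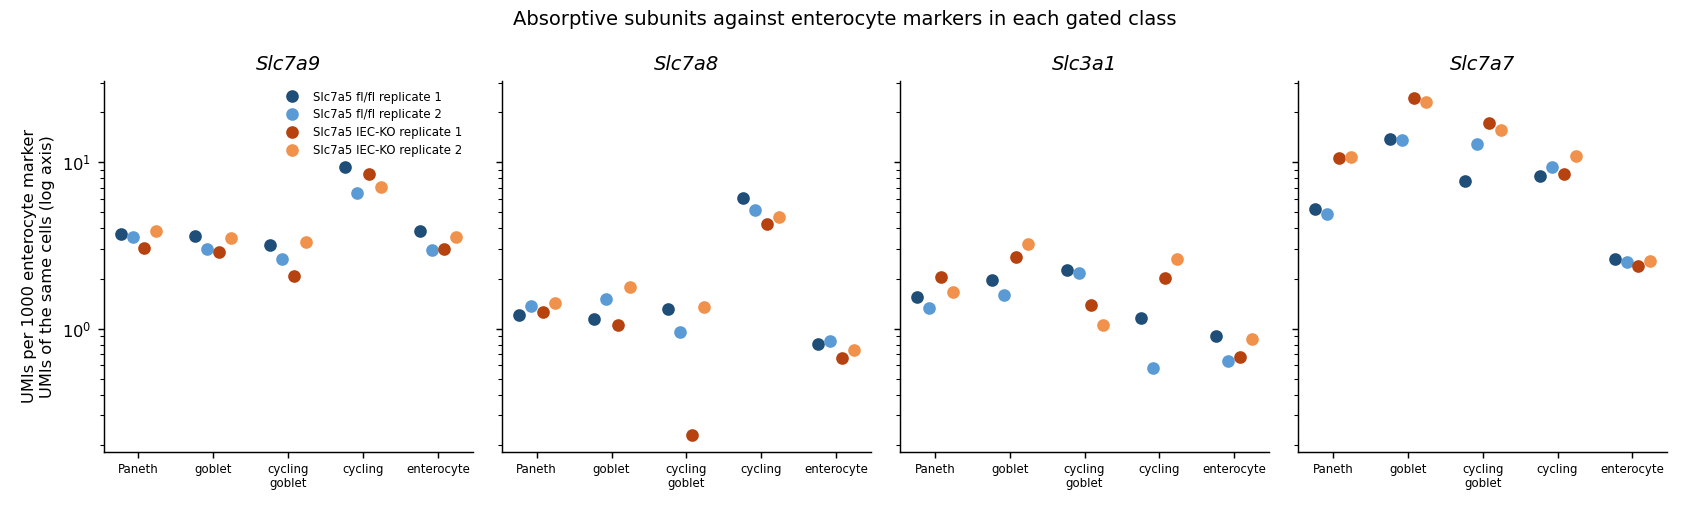
UMIs of 4 absorptive genes per 1000 UMIs of 20 enterocyte markers in the same cells (log axis), with a point for each library in 5 gated classes. Slc7a9 lies between 2.87 and 3.88 in Paneth-gated, goblet-gated and enterocyte-gated cells alike, while Slc7a7 lies far above its enterocyte ratio in goblet-gated cells. The same markers served to gate the classes other than Paneth-gated cells.

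In goblet-gated cells Slc7a9 was also lower in the IEC-KO libraries (−0.72, SE 0.19, 1.65-fold lower, adjusted p = 0.0117 by edgeR), a call lost without fl/fl 1 (adjusted p = 0.109) and with DESeq2 (adjusted p = 0.111). Slc3a1 stood at 4.05, 3.39, 3.40 and 4.32 there, with overlap, and Slc7a8 at 2.38, 3.25, 1.33 and 2.36. The fall of Slc3a1 in Paneth-gated cells exceeded that in goblet-gated cells (−1.12, adjusted p = 0.000438 by the interaction test), a call lost without IEC-KO 2 (−0.82, adjusted p = 0.0876) and under scaling by library size (−0.49, adjusted p = 0.0878). In cycling cells without goblet markers Slc3a1 gave 6, 3, 9 and 14 UMIs, higher in both IEC-KO libraries but not called (adjusted p = 0.304).

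The interaction was called for 5 of the 8 genes between Paneth-gated and goblet-gated cells (13.4% of all genes), for 4 against cycling cells (13.4%), for 4 against enterocyte-gated cells (8.11%) and for 1, Slc7a7, against cycling cells with goblet markers (11.0%). The calls against cycling cells include Slc7a5, which passed the count filter only together with the Paneth-gated sums. No call of the 5 against goblet-gated cells held with every library left out in turn. Scaling by library size moved the median interaction against goblet-gated cells by 0.62 and split its calls into 7754 higher and 60 lower, against 936 higher and 733 lower with TMM. The splits moved alike against cycling cells with goblet markers (639 and 655 to 5232 and 43), cycling cells (648 and 926 to 4965 and 129) and enterocyte-gated cells (272 and 677 to 3068 and 114).

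The sum of light chains per heavy chain was lower in IEC-KO in both secretory classes and in both cycling classes. UMIs of the 5 light chains that pair with Slc3a2 summed to 66.9, 63.6, 39.3 and 41.3 per 100 Slc3a2 UMIs in Paneth-gated cells and to 94.0, 113, 59.1 and 59.1 in goblet-gated cells. Both IEC-KO libraries were below both fl/fl libraries in each class. The same held in cycling cells without goblet markers (75.2, 79.3, 47.8 and 65.4) and with them (84.9, 120, 67.5 and 70.3). Slc3a2 itself was 2.03-fold and 2.52-fold higher in IEC-KO in Paneth-gated and goblet-gated cells, so a ratio to it can fall without a fall of the light chain. Slc7a7 in goblet-gated cells, for instance, had mean levels of 29.0 CPM in fl/fl and 30.7 in IEC-KO, while its ratio fell from a mean of 67.2 to 28.7 per 100. In enterocyte-gated cells the sums were 85.2, 121, 75.9 and 88.9, with overlap. These are ratios of 3′ transcript ends, 1 per transcript whatever its length, so they compare libraries and do not give the makeup of the proteins.

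Single light chains went different ways against Slc3a2. In Paneth-gated cells Slc7a5 gave 4.68, 4.06, 6.52 and 7.52 UMIs per 100 Slc3a2 UMIs and Slc7a11 4.06, 4.74, 10.2 and 8.66, both higher in IEC-KO. Slc7a7 gave 39.6, 36.3, 14.2 and 17.0, Slc7a6 9.40, 8.36, 6.68 and 5.94 and Slc7a8 9.10, 10.1, 1.68 and 2.24, all lower against Slc3a2. The level of Slc7a6 itself was 1.42-fold higher in IEC-KO there. In goblet-gated cells Slc7a11 again rose against Slc3a2, with 6.28, 8.27, 16.9 and 15.7. Slc7a5 was lower against Slc3a2 there in both IEC-KO libraries, with 6.02, 8.27, 4.70 and 5.24, but with cells thinned to 2000 UMIs its difference turned from −2.18 to 1.21 per 100. In cycling cells Slc7a5 gave 8.00, 7.76, 0 and 2.61. Each of these separations has a two-sided exact permutation p = 0.333, the smallest that 2 against 2 libraries can give.

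As shares of the 5 light chains, Slc7a7 made up 59.3%, 57.1%, 36.1% and 41.0% in Paneth-gated cells and 66.9%, 63.2%, 48.1% and 48.9% in goblet-gated cells. Slc7a11 made up 6.07%, 7.45%, 26.0% and 21% in Paneth-gated cells and 6.69%, 7.30%, 28.7% and 26.5% in goblet-gated cells. Slc7a5 went from 6.99% and 6.39% to 16.6% and 18.2% of the light chain UMIs in Paneth-gated cells, and Slc7a8 from 13.6% and 15.9% to 4.27% and 5.42%. The apical pair gave 241, 266, 150 and 234 Slc7a9 UMIs per 100 Slc3a1 UMIs in Paneth-gated cells, 185, 191, 106 and 108 in goblet-gated cells and 429, 463, 446 and 412 in enterocyte-gated cells.

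**Figure D4:**
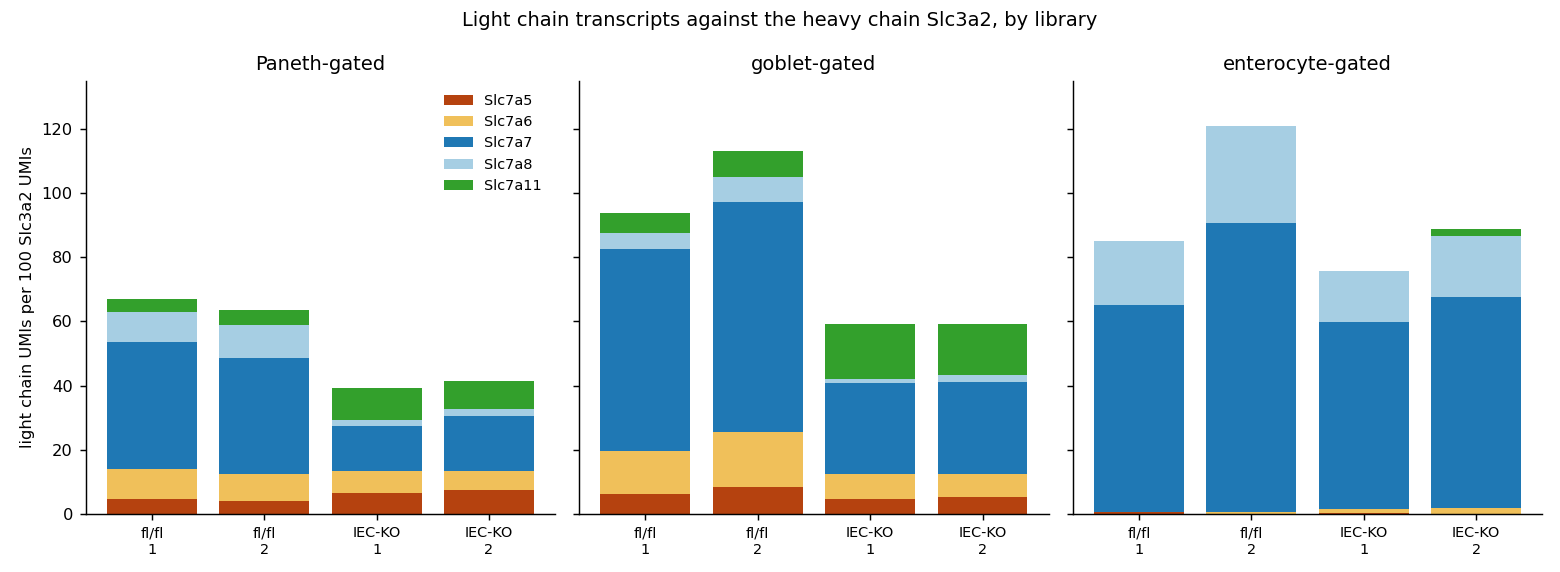
UMIs of 5 light chains per 100 UMIs of the heavy chain Slc3a2, stacked for each of the 4 libraries in Paneth-gated, goblet-gated and enterocyte-gated cells. The stacks fall from 66.9 and 63.6 to 39.3 and 41.3 in Paneth-gated cells while the Slc7a11 segment widens, and the enterocyte stacks overlap between genotypes. Slc3a2, the denominator, was itself 2.03-fold higher in the Paneth-gated cells of the IEC-KO libraries.

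Cell by cell, these transcripts were sparse. Thinned to 3843 UMIs, Slc7a5 had a UMI in 0.248% (95% exact binomial interval 0.0804 to 0.577), 0.410% (0.177 to 0.807), 1.73% (1.21 to 2.40) and 2.35% (1.78 to 3.05) of Paneth-gated cells. The intervals of the genotypes did not overlap, and they cover counting error only. Unthinned the shares were 4.41%, 4.21%, 6.09% and 9.89%, at the unequal depths given above. In goblet-gated cells the thinned shares were 1.31%, 1.21%, 1.84% and 2.40%, with intervals that overlap. In enterocyte-gated cells 0 of 108, 0 of 87, 1 of 289 and 0 of 221 thinned cells had a Slc7a5 UMI, and the 0 of 221 has an exact upper limit of 1.66%. The limits of the fl/fl libraries, from fewer cells, are wider, so these shares do not set a background below those of the other classes.

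Slc7a11 had a UMI in 0.149%, 0.359%, 2.38% and 2.27% of thinned Paneth-gated cells and in 1.31%, 0.867%, 6.41% and 5.63% of goblet-gated cells. Slc3a2 had one in 7.33%, 8.05%, 22.1% and 23.0% of Paneth-gated cells, 15.4%, 12.8%, 33.1% and 32.2% of goblet-gated cells and 54.6%, 29.9%, 52.2% and 49.3% of enterocyte-gated cells. The separation of genotypes for Slc7a11 and Slc3a2 in Paneth-gated and goblet-gated cells thus shows in cells of equal depth. Equal totals per cell act like scaling by library size, which moved the median of all genes in Paneth-gated cells by 0.62 toward IEC-KO. The thinned Paneth shares, those of Slc7a5 included, carry that shift. Unthinned, Slc3a2 was seen in 57.1%, 61.8%, 58.0% and 70.7% of Paneth-gated cells.

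Light and heavy chain were also set side by side within cells. Among thinned Paneth-gated cells of the IEC-KO libraries, 25.7% of the 35 and 21.8% of the 55 cells with a Slc7a5 UMI had a Slc3a2 UMI, against 22.0% and 23.1% of the other cells. In goblet-gated cells these shares were 41.2% of 85 and 33.3% of 105, against 32.9% and 32.2%. Of the 297 and 246 goblet-gated cells with a Slc7a11 UMI 39.4% and 40.2% had a Slc3a2 UMI, against 32.6% and 31.7% of the others. At 1 or a few UMIs a cell these are weak differences, given as values.

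The IEC-KO cells spread over all Defa shares, so the levels were also followed along that share, in CPM outside Defa (unscaled, with Defa UMIs left out of the total). Slc7a5 stood at 4.09, 5.34, 4.44, 6.55 and 6.68 in IEC-KO 1 from cells under 10% through 10 to 20%, 20 to 30% and 30 to 40% to cells of 40% and above. In IEC-KO 2 the values were 4.91, 6.09, 7.07, 7.65 and 6.99. In the fl/fl libraries the 2 bins from 30% up held 1.75 and 1.59, and 1.26 and 1.48, and those under 10% held 3.14 and 2.97, while the bins between rest on 1 to 7 UMIs. On the TMM scale the fl/fl order was the reverse, with a mean Slc7a5 level of 2.77 CPM in Paneth-gated cells and 2.35 in cells under 20% Defa.

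Slc7a11 ran the other way in the IEC-KO libraries, with 15.6, 15, 10.7, 10.2 and 11.0 in IEC-KO 1 and 15.5, 14.4, 10.4, 8.87 and 7.80 in IEC-KO 2. Slc3a2 was nearly level there, with 111, 103, 98.5, 103 and 94.7, and 113, 106, 102, 99.6 and 100. In the fl/fl libraries Slc3a2 stood at 62.1, 46.6, 34.3, 33.9 and 35.6, and at 59.5, 41.2, 43.2, 33.8 and 36.0. In every bin the IEC-KO libraries were above both fl/fl libraries for Slc3a2. The trends along the bins depend on the scale, since leaving out Defa does not set the bulk of genes equal between bins. With TMM the mean fl/fl level of Slc3a2 was higher in Paneth-gated cells (63.4 CPM) than in cells under 20% Defa (45.9). In the IEC-KO libraries these means were 129 and 96.3.

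**Figure D5:**
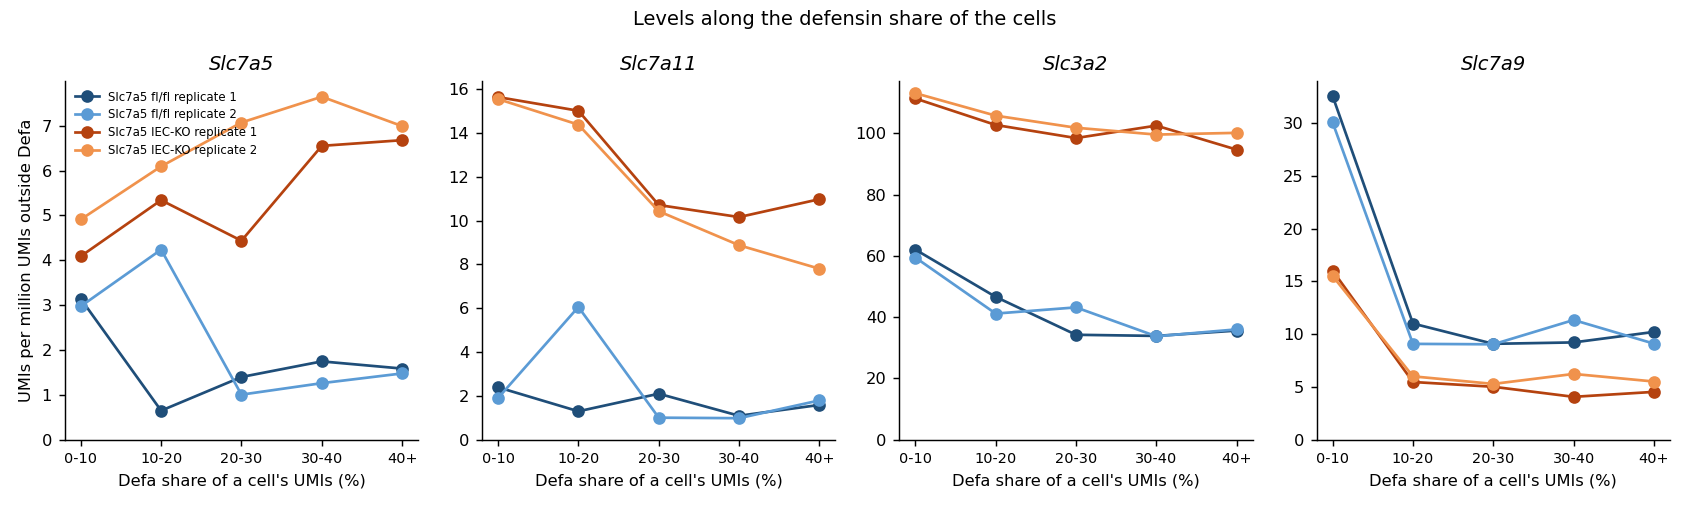
Levels of Slc7a5, Slc7a11, Slc3a2 and Slc7a9 in CPM outside Defa (UMIs per 1000000 UMIs of other genes, linear axes from 0) in 5 bins of the Defa share of a cell's UMIs, with a line for each library. The IEC-KO lines of Slc3a2 stay between 94.7 and 113 while the fl/fl lines fall from 62.1 and 59.5 to 35.6 and 36.0. These levels are without TMM scaling, with which fl/fl Slc3a2 was higher in Paneth-gated cells (mean 63.4) than in cells under 20% Defa (45.9). The fl/fl Slc7a5 points from 10 to 30% rest on 1 to 7 UMIs.

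Paneth-gated IEC-KO cells with a Try5 UMI, a trypsinogen seen in 243 and 271 of these cells and in 0 of the fl/fl ones, were set against the other Paneth-gated IEC-KO cells. Slc7a5 stood at 4.30 and 4.92 CPM (unscaled) with Try5 and at 4.14 and 4.69 without it. Slc3a2 stood at 59.1 and 62.3 with Try5 and at 64.4 and 62.7 without it. Slc7a11 stood at 5.37 and 4.42 against 6.69 and 5.55, from 20 and 27 UMIs in the Try5 cells.

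Other genes of the pathway were described by list. Of the 9 other SLC7 genes, 5 could be tested in Paneth-gated cells, and 3 rose and 2 fell, where 39.9% of all genes were called. Slc7a3, a cationic amino acid transporter that needs no heavy chain, gave 3, 0, 142 and 253 UMIs there and 0, 0, 108 and 148 in goblet-gated cells, so almost all its UMIs came from IEC-KO. Slc7a1, the widely expressed cationic transporter of the same subfamily, stood at 28.4, 26.5, 57.4 and 61.2 CPM (1.11, SE 0.07, adjusted p = 8.78e-11 by edgeR). Slc7a2, another of them, gave 9, 9, 23 and 30 UMIs (2.16). Slc7a3 and Slc7a2 passed the count filter only through the IEC-KO libraries, so their rises are values and not tests. Slc7a15 fell (−1.81, adjusted p = 2.99e-05), from 73, 76, 7 and 21 UMIs, and Slc7a4 fell in Paneth-gated (−0.45) and goblet-gated cells (−0.31, adjusted p = 0.00902).

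Of 15 carriers and partners that supply or drain these exchangers, 14 were tested in Paneth-gated cells, with 3 higher and 7 lower, and 13 in goblet-gated cells, with 3 higher and 5 lower. Of all genes 39.9% were called in Paneth-gated and 21.3% in goblet-gated cells. Among the falls in Paneth-gated cells were the peptide carrier Slc15a1 (−1.27), the neutral amino acid carrier Slc6a19 (−1.16) and the aromatic amino acid carrier Slc16a10 (−1.08). In goblet-gated cells Slc1a5, a glutamine carrier, rose from 65.2 and 65.5 to 111 and 103 CPM (0.74, adjusted p = 7.36e-07 by edgeR), while Slc16a10 (−1.11) and the glutamate carrier Slc1a1 (−0.80) fell. Of the proteins that bind CD98 outside transport, 7 were tested in each class, to be read against the same shares of all genes. In Paneth-gated cells the galectin Lgals3 (−0.99), the hyaluronan receptor Cd44 (−0.79) and Bsg (−0.28), a chaperone of lactate carriers, fell and Epcam, the adhesion molecule used in the sort, rose (0.19). In goblet-gated cells Lgals3 (−0.61) was the 1 call.

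A list of ATF4 targets outside the family, chosen with earlier results of these data known, was also higher in the IEC-KO libraries. It holds Atf4 itself and Nupr1, which is on the Paneth marker list too. The part of ATF4 in the transporter differences was not tested. In Paneth-gated cells 25 of the 25 tested were higher and 0 lower (median log2 change 1.59), and in goblet-gated cells 26 of 26 (1.79). Of all genes 39.9% and 21.3% were called, higher or lower, in these classes. Trib3, a pseudokinase induced by ATF4, stood at 1.67, 1.21, 160 and 132 CPM in Paneth-gated cells (6.65, SE 0.13, adjusted p = 6.01e-20 by edgeR), with the hormone Stc2 (5.01), the factor Atf5 (4.37) and the cytokine Gdf15 (4.26) next. In goblet-gated cells Fgf21, a hormone, gave 0, 0, 37 and 38 UMIs, and Trib3 (6.05), Gdf15 (5.21) and Chac1 (4.75), which degrades glutathione, rose. Fgf21 passed the count filter there only through the IEC-KO libraries and so could only be called higher. The counts of this list can include further genes of that kind.

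In the classes without a called transporter the list was still higher: 12 of 22 tested in cycling cells (median 0.71) and 9 of 18 in enterocyte-gated cells (1.27), with 0 lower in either. Atf5 rose by 2.70 and 3.35 there, and Trib3 gave 0, 0, 34 and 42 UMIs in enterocyte-gated cells. In that class Trib3 passed the count filter only through the IEC-KO libraries and so could only be called higher. In the cycling cells with goblet markers 21 of 24 were higher (1.30). Of all genes 1.89% were called in cycling cells without goblet markers, 1.46% in enterocyte-gated cells and 3.68% in goblet-marked cycling cells. The median change of all genes lay between −0.01 and 0.00 in each class.

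Of 16 genes of stress during dissociation, 7 were higher and 2 lower in Paneth-gated cells, where 39.9% of all genes were called, and 3 higher and 0 lower in goblet-gated cells, where 21.3% were, with list medians of 0.12 and −0.08. Atf3, which is on this list and is also induced with ATF4, rose most (2.91 and 3.77). The part of such stress in the results above was not tested.

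Across the 20 sums of 4 libraries by 5 classes, levels of the absorptive genes ran together, as a description over points that share libraries and depth. Pearson's r of log2 levels was 0.947 for Slc7a8 with Slc7a9, 0.894 for Slc7a7 with Slc3a1 and 0.874 for Slc7a9 with Slc3a1. The heavy chain Slc3a2 ran with neither Slc7a5 (r = −0.145) nor Slc7a11 (r = −0.006), being high in enterocyte-gated cells where both are scarce. Slc7a6 ran with Slc7a11 (0.791) and Slc7a5 against Slc7a9 (−0.696). Among 7795 genes with at least as many UMIs as Slc7a5, the genes most like Slc7a5 were Zfp560 (0.894), Gabarapl1 (0.862), Traf3ip2 (0.849), Ecscr (0.843) and Tst (0.838). Those most like Slc3a2 were Uqcrq (0.968), Clec2e (0.958), Iah1 (0.956), Reep6 (0.945) and Soat2 (0.929).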

How the data were processed

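The 4 libraries are 10x Genomics 3′ version 2 data from sorted crypt epithelial cells, 2 per genotype. The authors deposited UMI counts, not normalized, for each barcode kept by cell calling, without cell type labels. The submitters' processing notes name Cell Ranger 2.1.1 and mm10, and the study's methods name another Cell Ranger version. The libraries held 3633, 3217, 10004 and 9644 barcodes with 87922473 to 127094508 UMIs, and their lowest totals per barcode differed (8909, 9670, 3843 and 5858).

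The 8 genes and all gene lists were chosen with earlier results of these data known. Classes were gated on marker UMIs per 10000 outside Defa (goblet at least 1000, goblet-low under 400, enterocyte 100, cycling 45, enteroendocrine and tuft 64), thresholds set after the distributions were seen, which leaves 5.75% to 8.97% of barcodes in no class. The goblet-marked cycling cells are led by cycling markers. A stem range of 4 to 35 cells per library was not used, as stem markers did not lead it. Doublets were kept, and a caller's own threshold marked 5, 8, 0 and 0 cells, so as an alternative the highest scores were left out at 0.8% per 1000 cells.

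The sums per class and library were fitted in edgeR 4.0.16 (R 4.3.3) and tested by quasi-likelihood (TMM, filterByExpr, Benjamini-Hochberg over all genes, called under 0.05). Comparisons of classes and interactions had library as a block. Sums across classes were scaled with TMM over all sums. Named genes are the 8 members, at most 4 genes per list and comparison, largest first among called genes whose libraries do not overlap, and the 5 genes most like Slc7a5 and Slc3a2. Slc7a4 in Paneth-gated cells was added after its value was seen. The values of 1 listed gene are not reported here. On data simulated from the Paneth sums, 87% of 2-fold and 94% of 4-fold changes were recovered, and 65% and 90% on the enterocyte sums. False calls numbered 9 and 6. Every simulated gene of a class had the same dispersion and changed genes were drawn at any level. These rates therefore do not carry over to sparse members. For ratios, the exact permutation test over libraries was two-sided. Shares carry exact (Clopper-Pearson) binomial intervals, with a floor of 3 counts for a level of 0.

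Alternatives were scaling by library size, by DESeq2 size factors or by TMM without Defa, no filter or at least 10 counts in every library, the replicate number as a block, DESeq2 1.42.0, each library left out, Paneth gates of 20% and 40%, cells thinned to 2000 UMIs, a common limit of 9670 UMIs and doublets left out. A limit of 10% Defa for the other classes and the comparison of enterocyte-gated with goblet-gated cells were added after the data were seen.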

Additional observations from a re-analysis of the deposited data

Results flagged for a closer look

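Genotype differences of 14 pairs of gene and class differed between Paneth-gated cells and another class by edgeR's interaction test, each given as the log2 change in Paneth-gated cells minus that in the other class. Against goblet-gated cells the difference was −0.65 for Slc7a9 (adjusted p = 0.0102), 0.87 for Slc7a5 (0.0222), −0.36 for Slc7a7 (0.0082), −1.12 for Slc3a1 (0.000438) and −0.31 for Slc3a2 (0.00153). Each of these 5 was lost on leaving out at least 1 library: Slc7a9 without fl/fl 2 (−0.58, adjusted p = 0.0865), Slc7a5 without fl/fl 1, fl/fl 2 or IEC-KO 2, Slc7a7 without fl/fl 1 (−0.31, adjusted p = 0.178) or IEC-KO 1 (−0.29, adjusted p = 0.0731), Slc3a1 without IEC-KO 2 and Slc3a2 without fl/fl 2. Under scaling by library size the Slc7a9 value was −0.01 (adjusted p = 0.954). Against cycling cells with goblet markers it was −0.57 for Slc7a7 (0.0482), a call lost without fl/fl 1 (−0.16, adjusted p = 0.83), IEC-KO 1 (−0.48, adjusted p = 0.214) or IEC-KO 2 (−0.71, adjusted p = 0.0519).

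Against cycling cells without goblet markers the difference was −2.41 for Slc3a1 (adjusted p = 0.000493 by the interaction test, from 32 UMIs), −1.30 for Slc7a9 (1.46e-05) and 0.71 for Slc3a2 (1.51e-05). For Slc7a5 it was 3.88, called from 23 UMIs in cycling cells. Slc7a5 passed the count filter only together with the Paneth-gated sums, so its difference is given as a value. Slc3a2 lost its call with cells thinned to 2000 UMIs (0.46, adjusted p = 0.573). Against enterocyte-gated cells it was −1.35 for Slc7a9 (7.1e-15), −1.05 for Slc7a8 (0.00786), −1.04 for Slc3a1 (0.0056) and 0.76 for Slc3a2 (4.42e-07), and of these the Slc7a9 value was called with each library left out in turn. Slc7a9 lay at the enterocyte marker ratio in Paneth-gated cells, and the part of enterocyte RNA in its differences was not tested.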

How the results depend on the processing

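Of 303 alternative values for called genotype differences of single genes, 280 stayed called in the same direction, 22 lost the call and 1 turned. Class differences between Paneth-gated, goblet-gated and enterocyte-gated cells gave 114, 7 and 4 of 125, a tally without the comparisons with the 2 cycling classes, and interactions 66, 28 and 4 of 98. The values that turned under scaling by library size were Slc7a7 in Paneth-gated cells (0.36), Slc7a9, Slc7a5, Slc7a8 and Slc3a2 between Paneth-gated and goblet-gated cells (−0.35, −0.83, −0.54 and −0.92), the interactions of Slc7a7 and Slc3a2 against goblet-gated cells (0.27 and 0.32) and that of Slc7a7 against goblet-marked cycling cells (0.087). Outside that tally, Slc3a2 and Slc7a7 turned between Paneth-gated and cycling cells (−0.86 and −1.41), and Slc7a8, Slc7a9, Slc3a2 and Slc3a1 between Paneth-gated and goblet-marked cycling cells (−0.18, −0.23, −0.44 and −0.62). With cells thinned to 2000 UMIs the Slc7a5 interaction against goblet-gated cells turned (−0.35), as did the goblet ratio of Slc7a5 to Slc3a2 (1.21 per 100). Thinning leaves fewer UMIs: it called 3 of the 8 genes in Paneth-gated cells, 3 of 6 in cells under 20% Defa, 2 of 4 in goblet-gated and 0 of 2 in goblet-marked cycling cells. Between classes it called 3 (Paneth against goblet), 2 (goblet-marked cycling), 2 (cycling), 4 (enterocyte) and 5 (enterocyte against goblet), and 1, 0 and 2 interactions (goblet, goblet-marked cycling, enterocyte). Thinned ratio differences to Slc3a2 in Paneth-gated cells were 1.44 per 100 (main 2.66) for Slc7a5 and 6.30 (5.05) for Slc7a11, and shares of cells as deposited differed by 3.68 points for Slc7a5 and 4.92 for Slc3a2, against 1.72 and 14.9. DESeq2 called 2 genes in goblet-gated cells and 1 in goblet-marked cycling cells, where its adjusted p for Slc7a11 was NA, and a minimum of 10 counts called 1 there. Library size called 3 class differences and 2 interactions for goblet-marked cycling cells.

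Leaving out 1 library gave 2 to 5 called genes in goblet-gated cells (2 without fl/fl 1), and 2 to 4, 0 to 1 and 2 to 3 interactions against goblet-gated, goblet-marked cycling and enterocyte-gated cells. Counts of all genes (higher and lower) were 2515 and 2475 in Paneth-gated cells against 1581 and 1372 with DESeq2, 725 and 706 thinned and 1404 and 1258 at a 40% gate, where Slc7a7 and Slc3a1 lost their calls. They were 2102 and 2061 under 20% Defa against 1243 and 1153 (DESeq2) and 863 and 809 (thinned), and 1297 and 1146 in goblet-gated cells against 629 and 468, 422 and 307, and 845 and 682 without fl/fl 1. In goblet-marked cycling cells they were 207 and 120 against 61 and 31 (DESeq2), 35 and 29 (thinned), 120 and 76 without doublets, 76 and 55 without fl/fl 1 and 119 and 65 without fl/fl 2. The causes were not tested. The labels do not say that equal numbers mark shared animals, and with 2 pairs the same-number deviations correlated by −0.00028 in Paneth-gated and 0.114 in goblet-gated cells. With the replicate block 8, 6, 4 and 2 of the genes were called in Paneth-gated, under 20%, goblet-gated and goblet-marked cycling cells, as without it.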

Other observations

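Enteroendocrine-gated cells (9, 4, 74 and 57 per library) and tuft-gated cells (4, 6, 46 and 23) were too few to test. Slc3a2 gave 6, 2, 53 and 50 UMIs in the first, or 50.4, 41.3, 94.6 and 80.2 CPM without scaling, and 2, 3, 20 and 12 in the second, or 44.2, 39.4, 77.3 and 71.6. Slc7a5 gave 0, 0, 1 and 2 UMIs in enteroendocrine-gated cells and 0, 0, 1 and 1 in tuft-gated cells, and Slc7a11 1, 0, 3 and 7 and 0, 0, 2 and 2.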
